A study of Homo sapiens with 32 samples.

Results

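Whether 2 drugs act independently on a transcript can be read from 4 treatments: neither drug, each drug alone, and both. MM.1S, an established human multiple myeloma cell line grown in RPMI1640 with fetal bovine serum, was first given a 1 h pulse and then cultured for 12 h, and total RNA was sequenced. DMSO cells had DMSO in both steps (n = 3 libraries), ATRA cells a DMSO pulse and then 10 µM all-trans retinoic acid (n = 3), Cfz cells a carfilzomib pulse and then DMSO (n = 1), and ATRA+Cfz cells a carfilzomib pulse and then ATRA (n = 1). No source used here states the carfilzomib dose. The interaction of a gene was the ATRA effect after carfilzomib (ATRA+Cfz minus Cfz) minus the ATRA effect without it (mean of ATRA minus mean of DMSO), on log2(FPM + 0.5). FPM is fragments per 1000000 fragments of the library. It was described for the 10557 genes whose mean over the 4 group means was at least 5 FPM, of 15827 genes fitted and 24249 gene IDs in all. An interaction of 0 means that the 2 fold changes multiply, a positive value that the ATRA+Cfz level lay above that product, and a negative value that it lay below.

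ATRA is the active form of vitamin A. It binds nuclear retinoic acid receptors, which pair with retinoid X receptors on DNA and switch on target genes, and it promotes differentiation and slows division in many blood cell cancers. Carfilzomib is an irreversible inhibitor of PSMB5, the proteasome subunit with chymotrypsin-like activity. Plasma cells secrete large amounts of antibody and depend on protein quality control, and proteasome inhibitors are standard drugs against myeloma. Cells that sense a blocked proteasome are known to raise the transcription of proteasome subunits, heat shock chaperones and antioxidant enzymes.

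Depth was 14136937 to 17155331 reads per library. The plasma cell markers SDC1, TNFRSF17, IRF4, XBP1 and CD38 were detected in all 8 libraries, with SDC1 at 330 to 1270 FPM. Of 22 listed plasma cell identity genes, 20 had a mean of at least 5 FPM. FGFR3 (0.243 FPM) and CD27 (0.209 FPM) did not. Library DMSO 3 stood apart: in a chi-square test of read counts, the statistic over its degrees of freedom was 10.46 and 11.03 against DMSO 1 and DMSO 2, but 1.81 for DMSO 1 against DMSO 2. Mitochondrially encoded genes held 5.85% of its reads, 4.09% and 4.12% in the other DMSO libraries, 3.67% to 3.89% with ATRA, 5.43% with Cfz and 5.72% with ATRA+Cfz. No listed marker of T and NK, epithelial or erythroid cells reached 5 FPM, but 1 myeloid marker (CD68) and 3 stromal markers (COL6A3, VIM and FN1) did. Whether libraries of a group were separate cultures is not in the labels, and p-values therefore measure only a library-to-library spread that may be technical. That spread came from the DMSO and ATRA groups. Cfz and ATRA+Cfz, with 1 library each, were taken to have the same spread, and the interaction has no replicate check of its own.

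The interaction was small for most transcripts and was called for few. The interaction had a median of -0.01 and an SD of 0.25 across the 10557 genes, against a median standard error of 0.12, and 95.6% of genes lay within 0.5 of 0. With limma and Benjamini-Hochberg adjustment over all genes fitted, 346 genes (3.28%) were called at an adjusted p under 0.05, 151 of them higher (1.43%) and 195 lower (1.85%). At an unadjusted p under 0.05 there were 1123 higher and 1340 lower. The called interactions were modest, with a median size of 0.46 and a smallest of 0.27 on the log2 scale, and 23 of all genes exceeded 1. In all 346 the ATRA+Cfz minus Cfz difference lay outside all 9 differences between single ATRA and DMSO libraries, as it did for 56.2% of all genes.

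The number of calls depended strongly on single libraries. Leaving out ATRA 1, ATRA 2 or ATRA 3 left 0, 1 or 5 genes higher and 1, 5 or 10 lower. Leaving out DMSO 1 or DMSO 2 left 89 or 65 higher and 138 or 95 lower, and leaving out the atypical DMSO 3 gave 904 higher and 1006 lower. MCM5, a replication helicase subunit, was the only named gene called in each of these 6 fits. The sign of all 346 called genes was kept in each of the 6, but the Cfz and ATRA+Cfz libraries, which gave these genes their selection, enter every fit and cannot be left out. The balance of the calls moved with scaling, to 113 higher and 412 lower with median-ratio factors and 116 and 247 with TMM factors. DESeq2 on recovered reads, which changes the model as well as the scaling, gave 67 and 229, and edgeR on the same reads 140 and 163.

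**Figure D1:**
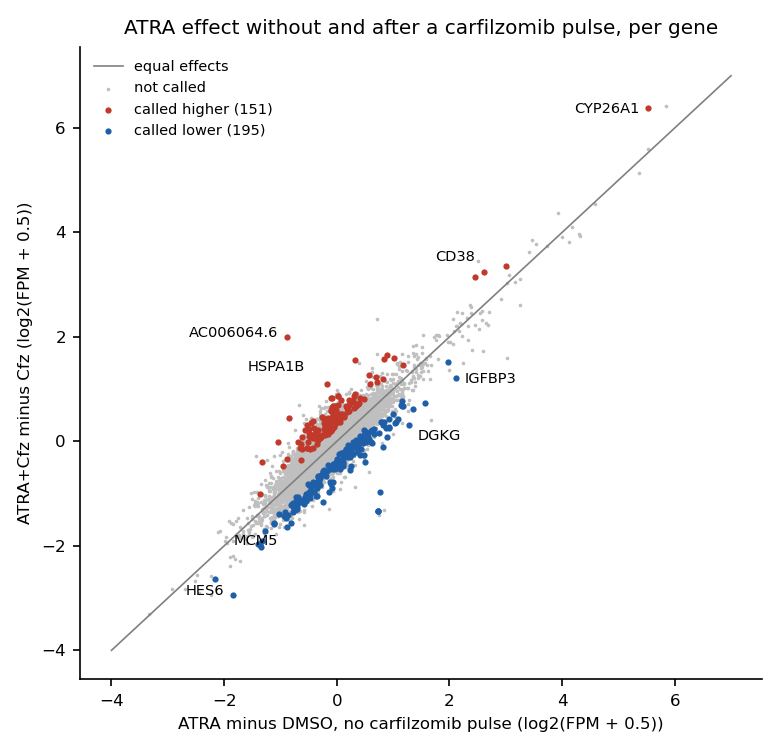
The ATRA effect without carfilzomib (x axis, log2) against the ATRA effect after a carfilzomib pulse (y axis, log2), 1 point per gene of at least 5 FPM; the grey line marks equal effects, and red and blue points are the 151 genes called higher and the 195 called lower. The cloud follows the line over its whole length, with CYP26A1 (5.52 and 6.38) at its upper end and HES6 (-1.84 and -2.94) near its lower end.

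The ATRA response as a whole was carried over into carfilzomib-pulsed cells almost at full size. The least-squares slope of the ATRA effect after carfilzomib on that without it was 0.94 (SD 0.025 over the 9 pairs of single DMSO and ATRA libraries; r = 0.88 across genes, which are not independent replicates). The 2 effects share no library. Of the 197 genes that ATRA alone raised at least 2-fold, all 197 were also higher with ATRA after carfilzomib, and the median was 1.40 and 1.42 on the log2 scale. Of the 260 genes lowered at least 2-fold, all 260 were also lower, at medians of -1.21 and -1.33. Both ATRA effects were called for 3582 genes, and they had the same direction in 3531 and the opposite direction in 51.

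The carfilzomib effects had a lower slope and correlation between the 2 settings. Their SD across genes was 0.32 without ATRA and 0.36 with it. Such an SD also holds noise and any shift of a single library, so it does not show whether the effects themselves differed in size. The rank correlation with the GC content of the transcript was -0.01 for the effect without ATRA and -0.31 with it. The slope of the carfilzomib effect with ATRA on that without it was 0.82 (SD 0.051 over the 9 pairs, r = 0.74). Noise in the effect without ATRA, which rests on 1 Cfz library, also lowers such a slope, and its part was not tested. In single lanes, with fewer reads, this slope was 0.58 to 0.64 and the ATRA slope 0.88 to 0.89. The 2 slopes therefore do not show that carfilzomib effects were kept less well than ATRA effects. Among the 97 genes that were at least 2-fold higher with Cfz alone, the median difference was 1.30 without ATRA and 0.95 with it, and 23 of the 97 had a lower and 1 a higher called interaction. Since the Cfz library enters both this selection and the interaction, these counts are a description only. When genes were sorted by the single effects, the 642 genes that rose with each drug alone held 70 lower and 0 higher calls, and the 1401 that fell with each drug alone held 38 lower and 39 higher. Single effects and interaction share libraries, so the sorting is descriptive too.

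A shortfall on the multiplicative scale can still be an excess on the additive one, so each ATRA+Cfz level was also set against the sum of the single differences in FPM. Of the 195 genes called lower, 176 also lay below this sum, and of the 151 called higher, 150 also lay above it. Much of this is fixed by arithmetic: the product exceeds the sum wherever both single effects have the same sign, and the 2 nearly coincide where either effect is near 0. The comparison was free to differ for lower calls among genes that moved the same way with each drug. There, 65 of the 70 that rose with each drug lay below the sum, and 24 of the 38 that fell with each drug. It was also free to differ for higher calls among genes that moved opposite ways, where the product lies below the sum. Of these, 19 of the 20 that rose with ATRA and fell with carfilzomib lay above the sum, and 1 of 1 that fell with ATRA and rose with carfilzomib.

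Genes of DNA replication were the clearest group in which the drugs together lowered transcripts beyond the product of their effects. All 25 listed genes had a negative interaction, against 52.1% of all genes, with a median of -0.40 and a range from -0.76 to -0.02. By limma 12 of the 25 were called lower and 0 higher, against a background of 1.85% and 1.43%. ATRA alone had lowered all 25 (33.7% of all genes were called lower with ATRA) and carfilzomib alone 22 (23.5% of all genes). The median ATRA effect went from -0.84 without carfilzomib to -1.27 after it, where 24 of 25 were called lower (23.4% of all genes), and the median carfilzomib effect from -0.40 to -0.82 with ATRA, where 24 were called lower (27.9% of all genes). In bulk RNA, fewer cells in S phase and less RNA per cell cannot be told apart.

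The MCM helicase, a ring of MCM2 to MCM7 that unwinds DNA at the replication fork, was called lower in 6 of 6 subunits, with interactions from -0.74 to -0.38. MCM5 stood at 178, 176 and 175 FPM with DMSO, 94.8, 94.4 and 95.7 with ATRA, 138 with Cfz and 44.2 with ATRA+Cfz. The product of its fold changes would give 74.0 FPM and the sum of its differences 56.1 FPM, both above the measured level (interaction -0.74 ± 0.07 SE, limma, Benjamini-Hochberg adjusted p = 0.0023, the smallest of all genes). MCM2 went from 233, 229 and 238 FPM with DMSO to 154, 154 and 157 with ATRA, 177 with Cfz and 76.9 with ATRA+Cfz (-0.61 ± 0.07 SE). MCM3 went from 364, 362 and 351 FPM to 226, 231 and 236 with ATRA, 294 with Cfz and 131 with both (-0.52 ± 0.07 SE). In each of these genes the ATRA+Cfz library was the lowest of the 8, and the DMSO and ATRA libraries did not overlap.

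E2F1, a transcription factor that switches on S phase genes, behaved alike. Its level was 73, 70.1 and 69.4 FPM with DMSO, 40.4, 38.3 and 41.9 with ATRA, 46.4 with Cfz and 15.3 with ATRA+Cfz, against 26.3 FPM for the product and 15.8 FPM for the sum (-0.76 ± 0.10 SE, limma, Benjamini-Hochberg adjusted p = 0.012). The measured E2F1 level was thus far below the product and close to the sum. The other called genes, listed after their values were seen, were MCM4 (-0.49), MCM6 (-0.38), MCM7 (-0.48), MCM10 (-0.44), which helps activate the helicase, CDC6 (-0.59), which loads it, the sliding clamp PCNA (-0.42), the flap nuclease FEN1 (-0.39) and UHRF1 (-0.58), which keeps DNA methylation through replication. Not called, among others, were the ribonucleotide reductase subunits RRM1 (-0.22) and RRM2 (-0.32) and the cyclin CCNE2 (-0.02 ± 0.28 SE). Without ATRA 1, ATRA 2 or ATRA 3, only 1, 3 or 3 genes of the list were called, and without DMSO 3, 20 were.

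Promoters were compared because these genes moved together. RefSeq promoters (GRCh38.p14, 250 bases before to 50 after the start) were matched for 8283 of the 10557 genes and for 10 of the 12 called replication genes. The E2F site was searched as TTTCGCGC or TTTGGCGC on both strands, so that a site that runs into its own reverse complement counts as overlapping matches. It was found in 9 of 21 replication promoters (42.9%), in 12 of 151 promoters of genes called lower (7.9%), in 2 of 120 called higher (1.7%), in 2.3% of all 8283 and in 1.2% of all promoters of the table. The 12 include 6 of the replication promoters, so the 2 shares are not separate observations. The stretches from 160 bases before to 20 after the start are shown for the 6 called replication genes with a site there, to let the position and the repeats of the site be seen. Capitals mark the site, and sequences run 5′ to 3′ on the gene's strand.
MCM2, chr3:127598251-127598430, plus strand: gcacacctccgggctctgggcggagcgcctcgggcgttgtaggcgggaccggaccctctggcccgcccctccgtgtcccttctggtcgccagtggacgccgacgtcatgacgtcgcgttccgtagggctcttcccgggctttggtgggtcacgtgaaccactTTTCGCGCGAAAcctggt
MCM3, chr6:52284723-52284902, minus strand: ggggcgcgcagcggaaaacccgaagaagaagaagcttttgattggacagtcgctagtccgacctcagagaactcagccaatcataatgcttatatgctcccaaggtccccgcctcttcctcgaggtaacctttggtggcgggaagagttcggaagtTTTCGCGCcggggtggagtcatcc
MCM6, chr2:135876424-135876603, minus strand: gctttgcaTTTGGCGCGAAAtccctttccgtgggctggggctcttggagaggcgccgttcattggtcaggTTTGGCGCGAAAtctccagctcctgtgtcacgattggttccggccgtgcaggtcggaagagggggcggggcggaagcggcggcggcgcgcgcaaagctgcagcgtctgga
MCM7, chr7:100101378-100101557, minus strand: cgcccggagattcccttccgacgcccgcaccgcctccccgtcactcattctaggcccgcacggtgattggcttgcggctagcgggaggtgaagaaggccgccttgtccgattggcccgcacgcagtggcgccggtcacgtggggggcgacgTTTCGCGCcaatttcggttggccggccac
CDC6, chr17:40287719-40287898, plus strand: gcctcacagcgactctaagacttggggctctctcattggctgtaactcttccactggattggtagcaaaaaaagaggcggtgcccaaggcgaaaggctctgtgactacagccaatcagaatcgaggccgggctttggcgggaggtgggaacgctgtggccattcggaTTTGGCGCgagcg
E2F1, chr20:33686366-33686545, minus strand: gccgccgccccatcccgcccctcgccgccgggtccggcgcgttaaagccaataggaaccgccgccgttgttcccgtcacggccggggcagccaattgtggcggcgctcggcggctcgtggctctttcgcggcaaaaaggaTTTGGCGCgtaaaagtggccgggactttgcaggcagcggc
The site lay next to the start in MCM2, MCM3, MCM7, CDC6 and E2F1 and further upstream, in 2 copies, in MCM6. A match is a description of the sequence, not a binding site.

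Genes of mitosis had also been lowered by ATRA, but their interactions were near 0. ATRA alone lowered all 22 listed genes (33.7% of all genes were called lower), and carfilzomib alone 14 (23.5% of all genes). The median ATRA effect was -0.73 without and -0.79 after carfilzomib, and the median interaction was 0.02 (range -0.25 to 0.33). By limma 0 of 22 were called in either direction, close to the 3.28% called of all genes. At an unadjusted p under 0.05, 1 was higher and 0 lower, against 1123 and 1340 of all 10557 genes. Among them were, named after their values were seen, the proliferation marker MKI67 (0.14 ± 0.08 SE), the mitotic kinase CDK1 (0.02 ± 0.09 SE) and topoisomerase TOP2A (0.07 ± 0.09 SE). The E2F site was found in 2 of 17 mitosis promoters (11.8%). The difference between the replication and the mitosis genes was not tested.

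**Figure D2:**
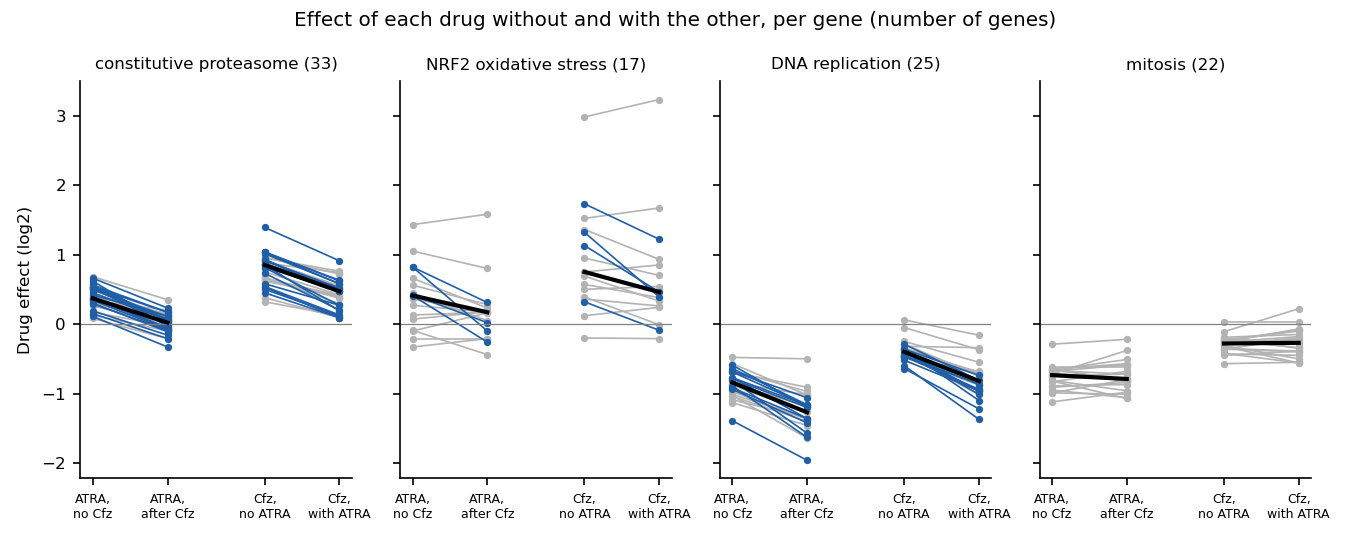
Drug effects (y axis, log2) of each gene of 4 lists, each drug without and with the other; thin lines are genes (blue, called lower in the interaction; grey, not called) and thick black lines list medians. The proteasome median falls from 0.37 to 0.02 for ATRA and from 0.85 to 0.47 for Cfz, the replication medians move further below 0, and the mitosis medians stay nearly level.

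Nearly all proteasome subunits rose with each drug alone, and with both drugs their levels were close to those with carfilzomib. All 33 genes of the constitutive proteasome had a negative interaction, from -0.66 to -0.14 with a median of -0.38. By limma 20 of the 33 were called lower and 0 higher, against a background of 1.85% and 1.43%. Carfilzomib alone had raised all 33 (10.9% of all genes were called higher) and ATRA alone 31 (27.2% of all genes), with medians of 0.85 and 0.37. After carfilzomib the median ATRA effect was 0.02, with 4 genes called higher and 3 lower (16.6% and 23.4% of all genes), and with ATRA the median carfilzomib effect was 0.47, with 26 called higher (13.9% of all genes).

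The shortfall was spread over the whole particle. Among subunits of the core, which holds the protein-cutting sites, 6 of 7 beta subunits and 3 of 7 alpha subunits were called lower. Of the regulatory cap, which binds and unfolds ubiquitin-tagged proteins, 2 of 6 ATPases and 9 of 12 other subunits (with ADRM1, a ubiquitin receptor) were called lower, while the assembly factor POMP was at -0.33 and not called. PSMB5, the target of carfilzomib, stood at 30.5, 30.8 and 27.2 FPM with DMSO, 47.5, 43 and 46 with ATRA, 53.5 with Cfz and 51.9 with ATRA+Cfz. The product of the PSMB5 fold changes would give 82.2 FPM and the sum 69.4 FPM (interaction -0.66 ± 0.12 SE, limma, Benjamini-Hochberg adjusted p = 0.024). The ATRA+Cfz library lay above all ATRA libraries but just below Cfz.

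PSMB4, a structural beta subunit, was measured at 284, 291 and 282 FPM with DMSO, 428, 423 and 421 with ATRA, 475 with Cfz and 487 with ATRA+Cfz, against 705 for the product and 613 for the sum (-0.53 ± 0.06 SE). PSMC4, an ATPase of the cap, stood at 104, 97.7 and 98.5 FPM, then 146, 146 and 144 with ATRA, 263 with Cfz and 274 with both (-0.48 ± 0.07 SE). In both genes ATRA+Cfz exceeded Cfz by little, although ATRA alone had separated from DMSO without overlap. PSMB6 (-0.54), PSMD3 (-0.45) and PSMD11 (-0.45) were also called. Without ATRA 1, ATRA 2 or ATRA 3, 0, 0 or 1 proteasome genes were called, and without DMSO 3, 32 of 33 were.

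The immunoproteasome and its activators, which replace or open the core in immune cells, were negative in all 5 genes (median -0.27). Of these 1 was called lower, the activator subunit PSME1 (-0.39 ± 0.08 SE), against 1.85% of all genes. The 14 genes of MHC class I presentation, which load proteasome products on the cell surface, were all negative too (median -0.24), with 0 called by limma. At an unadjusted p under 0.05, 8 were lower and 0 higher, against 1340 and 1123 of all 10557 genes. Their median GC content was 56.2%, against 48.4% for all genes, and their median interaction was -0.16 with GC correction and -0.17 without DMSO 3.

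Some antioxidant and metabolic genes also lay below the product. NRF2 is the transcription factor of the oxidative stress response, and 4 of the 17 genes of its list were called lower and 0 higher (1.85% and 1.43% of all genes), with 12 negative, 5 positive and a median of -0.25. Without any 1 ATRA library 0 of them were called, and without DMSO 3, 8 were. TALDO1, an enzyme of the pentose phosphate pathway that helps regenerate NADPH, stood at 198, 186 and 170 FPM with DMSO, 245, 246 and 243 with ATRA, 404 with Cfz and 337 with ATRA+Cfz (interaction -0.67 ± 0.10 SE, limma, Benjamini-Hochberg adjusted p = 0.014). Here ATRA raised the TALDO1 level in unpulsed cells and the ATRA+Cfz library lay below Cfz. PIR, an iron-binding nuclear protein, showed the same pattern at 15.7, 15.4 and 13.3 FPM with DMSO, 25.8, 25.9 and 27.9 with ATRA, 37.5 with Cfz and 34.9 with both (-0.92 ± 0.15 SE). SRXN1, which repairs oxidised peroxiredoxins, was 269 FPM with both drugs, against 383 FPM for the product and 267 FPM for the sum (-0.51 ± 0.09 SE), so its shortfall was on the multiplicative scale only. Thioredoxin TXN was called as well (-0.41 ± 0.06 SE).

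Not every gene of the NRF2 list behaved so, and 2 genes of the ubiquitin and autophagy list, SQSTM1 and GABARAPL1, differed from each other. HMOX1, the haem-degrading enzyme, was raised strongly by carfilzomib in both settings, at 22.6, 22.6 and 15 FPM with DMSO, 18.5, 19.1 and 17.6 with ATRA, 159 with Cfz and 177 with ATRA+Cfz, and its interaction was 0.26 ± 0.25 SE. SQSTM1, the autophagy receptor p62, stood at 415, 401 and 406 FPM with DMSO, 755, 747 and 741 with ATRA, 1894 with Cfz and 3214 with ATRA+Cfz. The product of its fold changes would give 3476 FPM and the sum 2235 FPM (interaction -0.11 ± 0.06 SE, not called). Its 2 rises thus came close to multiplying and lay far above additivity. GABARAPL1, a protein of the autophagosome membrane, was 13.2, 15.4 and 12.1 FPM with DMSO, 41, 39.8 and 41.8 with ATRA, 61 with Cfz and 102 with ATRA+Cfz. It was called lower (-0.82 ± 0.16 SE) but lay between the sum, 88.3 FPM, and the product, 181 FPM.

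Of 21 glycolysis genes, 8 were called lower and 0 higher (1.85% and 1.43% of all genes), with a median of -0.28. GAPDH, measured at 2045, 2058 and 2096 FPM with DMSO and 2201, 2213 and 2210 with ATRA, was at 3364 with Cfz and 2643 with ATRA+Cfz (-0.44 ± 0.07 SE). PKM, pyruvate kinase, was at 512, 493 and 501 FPM with DMSO, 410, 406 and 413 with ATRA, 754 with Cfz and 464 with both (-0.40 ± 0.06 SE). Aldolase ALDOA (-0.53 ± 0.07 SE) and the isomerase TPI1 (-0.37 ± 0.06 SE) were called in the same direction. Without ATRA 1, ATRA 2 or ATRA 3, 0, 0 or 1 glycolysis genes were called. Without DMSO 1 or DMSO 2, 5 or 4 were.

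The lysosomal protease CTSD and the galactosidase GLA were the 2 lysosome genes called of 25, both lower. Of all genes 1.85% were called lower and 1.43% higher, and the list median was -0.12. CTSD was at 115, 117 and 108 FPM with DMSO, 216, 218 and 211 with ATRA, 284 with Cfz and 338 with ATRA+Cfz, against 539 for the product and 386 for the sum (interaction -0.67 ± 0.08 SE, limma, Benjamini-Hochberg adjusted p = 0.0074). GLA was at 36.3, 37.2 and 35.1 FPM with DMSO, 52.4, 56 and 58.8 with ATRA, 120 with Cfz and 119 with both (-0.62 ± 0.10 SE).

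**Figure D3:**
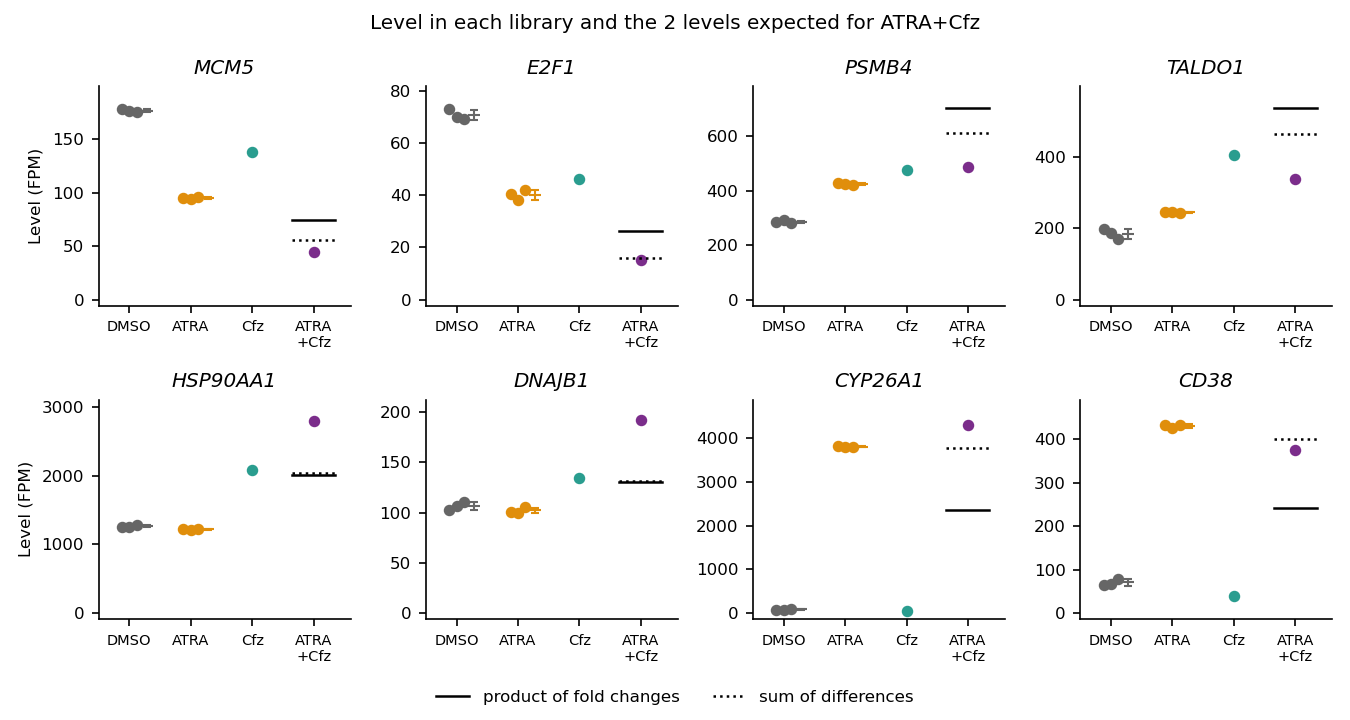
Level in FPM (y axis, linear) of 8 genes in each library (points; bars beside the triplicates are the mean ± SD), with the ATRA+Cfz level expected from the product of the fold changes (solid line) and from the sum of the differences (dotted line). MCM5, PSMB4 and TALDO1 lie below both lines, HSP90AA1, DNAJB1 and CYP26A1 above both, E2F1 just under the sum, and CD38 between the 2.

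For a few heat shock chaperones the ATRA+Cfz level exceeded the product. Of 25 listed genes, 16 had a positive and 9 a negative interaction, 4 were called higher and 0 lower (background 1.43% and 1.85%), 11 were higher and 1 lower at an unadjusted p under 0.05, and the median was 0.14, which was 0.09 with edgeR and 0.05 with DESeq2. HSP90AA1, the inducible HSP90, was at 1256, 1261 and 1280 FPM with DMSO, 1228, 1213 and 1226 with ATRA, 2087 with Cfz and 2803 with ATRA+Cfz. The product was 2016 FPM and the sum 2044 FPM (interaction 0.48 ± 0.07 SE, limma, Benjamini-Hochberg adjusted p = 0.012). Without the pulse the ATRA libraries lay just below the DMSO libraries, while after the pulse the library with ATRA was the higher one.

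DNAJB1, the HSP40 partner of HSP70, was at 102, 106 and 110 FPM with DMSO, 101, 100 and 105 with ATRA, 134 with Cfz and 192 with ATRA+Cfz (0.57 ± 0.08 SE, limma, Benjamini-Hochberg adjusted p = 0.012). HSPA4L, an HSP70 nucleotide exchange factor, was called as well (0.36 ± 0.08 SE), but not with GC correction. HSPA1A and HSPA1B, which encode the stress-inducible HSP70, are so alike in sequence that the split of reads between them is uncertain, and the lanes of both differed beyond sampling noise. Their summed level was 94.8, 92.8 and 127 FPM with DMSO, 92, 89.5 and 91 with ATRA, 332 with Cfz and 674 with ATRA+Cfz, against 291 for the product and 318 for the sum, an interaction of 1.21. HSPA1B alone was called (1.25 ± 0.20 SE) and HSPA1A was not (1.36 ± 0.39 SE).

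The mitochondrial chaperones HSPD1 (0.08) and HSPE1 (-0.04) and the chaperonin subunits CCT2 (-0.08) and TCP1 (-0.06), looked up after the list was seen, had interactions near 0. A heat shock element, taken as 3 alternating GAA and TTC units 2 bases apart, stood in 5 of 23 promoters of the list (21.7%), against 0.3% of all 8283 and in none of the 120 promoters of genes called higher. Without ATRA 1, ATRA 2 or ATRA 3, 0, 0 or 1 heat shock genes were called, and without DMSO 3, 9 were.

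The integrated stress response, in which the factor ATF4 raises amino acid and one-carbon genes, had mostly positive interactions. Of 23 genes 20 were positive, with a median of 0.17, 2 were called higher and 0 lower (1.43% and 1.85% of all genes). At an unadjusted p under 0.05, 11 were higher and 0 lower, against 1123 and 1340 of all 10557 genes. ALDH1L2, a mitochondrial folate enzyme, was at 32.1, 32.7 and 31.8 FPM with DMSO, 46.2, 48 and 50.3 with ATRA, 27.9 with Cfz and 68.3 with ATRA+Cfz (0.71 ± 0.10 SE, limma, Benjamini-Hochberg adjusted p = 0.012). The Cfz library was the lowest of the 8 for ALDH1L2 and the library with both drugs the highest. PSAT1, which makes serine, was at 69.1, 70.5 and 72.1 FPM with DMSO, 93.7, 94.5 and 95.3 with ATRA, 78.5 with Cfz and 140 with both (0.41 ± 0.07 SE), a call that was lost with GC correction.

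DDIT3, the stress factor CHOP, was at 5.71, 5.62 and 6.29 FPM with DMSO, 9.76, 8.55 and 9.5 with ATRA, 8.06 with Cfz and 22.2 with ATRA+Cfz, but was not called (0.79 ± 0.20 SE, limma, Benjamini-Hochberg adjusted p = 0.064). ATF4 itself (0.21 ± 0.08 SE), ATF3 (0.04 ± 0.16 SE) and DDIT4 (0.38 ± 0.15 SE) were not called either. The ATF4 site TGATGNAA was found in 4 of 20 promoters of the list and in 1.5% of all 8283, both strands searched. The unfolded protein response of the endoplasmic reticulum had a median of -0.08 in 21 genes. SEL1L was called higher (0.46, not called with GC correction at 0.39) and SEC61B lower (-0.36), against 1.43% and 1.85% of all genes.

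Direct retinoid targets differed among themselves. CYP26A1, the enzyme that breaks down retinoic acid, was at 79, 77.7 and 92.9 FPM with DMSO, 3822, 3814 and 3808 with ATRA, 51.4 with Cfz and 4316 with ATRA+Cfz. The ATRA+Cfz level lay above the product, 2371 FPM, and the sum, 3783 FPM (interaction 0.86 ± 0.12 SE, limma, Benjamini-Hochberg adjusted p = 0.012). CD38, a surface enzyme of plasma cells and an antibody target in myeloma, was at 64.7, 67.5 and 79.5 FPM with DMSO, 434, 426 and 433 with ATRA, 39 with Cfz and 376 with ATRA+Cfz (0.64 ± 0.13 SE, limma, Benjamini-Hochberg adjusted p = 0.029). The CD38 level with both drugs lay below all ATRA libraries, above the product of 241 FPM and below the sum of 400 FPM. In both genes the Cfz level lay below every DMSO library.

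Of the other 8 retinoid genes of at least 5 FPM, 0 were called, close to the 3.28% called of all genes. The receptor RARA was at -0.14 ± 0.08 SE and the ubiquitin ligase subunit ASB2 at -0.47 ± 0.26 SE, both looked up after the list was seen. MFGE8, ABCB1 and HAPLN3, with ATRA rises about as large as that of CYP26A1, were not called. MFGE8, a secreted phosphatidylserine-binding protein, was at 19.9, 21.2 and 23.2 FPM with DMSO, 1019, 1010 and 1006 with ATRA, 17.8 with Cfz and 878 with ATRA+Cfz, against a product of 845 (0.05 ± 0.10 SE). The drug efflux pump ABCB1 was between 0.423 and 0.734 FPM without ATRA and at 44, 42.7 and 42.8 FPM with ATRA and 42.2 FPM with ATRA+Cfz (-0.25 ± 0.25 SE). The link protein HAPLN3 was at 101, 95.5 and 92.6 FPM with ATRA and 98.8 with both, above the product of 65.5 (0.59 ± 0.21 SE, not called). XBP1, the plasma cell and secretory factor, rose less with ATRA alone (1.56 on the log2 scale) and was not called either. Its level was 890, 906 and 888 FPM with DMSO, 2635, 2648 and 2656 with ATRA and 2260 with both (-0.07 ± 0.07 SE).

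The antiviral OAS enzymes, which make the messenger that activates RNase L, had interactions near 0 as well. OAS1 rose from 13.9, 13.5 and 19.1 FPM with DMSO to 125, 129 and 131 with ATRA, and stood at 13.6 with Cfz and 115 with ATRA+Cfz (interaction 0.01 ± 0.21 SE). OAS2 was at 41.4, 43.4 and 43.4 FPM with DMSO, 124, 120 and 120 with ATRA, 37.2 with Cfz and 102 with both (-0.05 ± 0.08 SE), and OAS3 had an interaction of 0.04 ± 0.16 SE. Across the 6 genes of this pathway 0 were called, and of 32 interferon-stimulated genes 0 were called too by limma. Of all genes 3.28% were called, so 0 calls in lists of this size is close to the background. The interferon-stimulated genes had a median of -0.04. At an unadjusted p under 0.05, 2 of them were higher and 4 lower, against 1123 and 1340 of all 10557 genes. IRF1, the interferon regulatory factor, was at 199, 207 and 194 FPM with ATRA and 229 with both drugs. It was not called (0.25 ± 0.07 SE), but was called higher with GC correction at 0.34. A missing call does not show that an interaction is absent: the standard error of OAS1 leaves room for one of the size called in other genes. The standard errors of OAS2 and IRF1 were smaller, below the median of 0.12 over all genes.

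Among survival genes, MCL1, the BCL2 family member on which myeloma cells depend, was at 613, 617 and 622 FPM with DMSO, 1389, 1374 and 1404 with ATRA, 574 with Cfz and 1577 with ATRA+Cfz. Its interaction was small but called (0.29 ± 0.06 SE, limma, Benjamini-Hochberg adjusted p = 0.044), and the call was lost with TMM scaling, median-ratio scaling and GC correction. The library with both drugs was the highest for MCL1. MCL1 was the only one of 22 BCL2 family and death receptor genes called (3.28% of all genes were called). Of 17 p53 targets and 12 NF-kB targets 0 were called, with 3 and 0 higher and 1 and 0 lower at an unadjusted p under 0.05. MYC, at 674, 674 and 667 FPM with ATRA and 569 with both, was not called (-0.24 ± 0.06 SE). JUN, an immediate-early factor, was at 32.3, 33.2 and 34.5 FPM with DMSO, 18, 17.2 and 18 with ATRA, 34 with Cfz and 26.7 with both (0.55 ± 0.12 SE).

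Some genes with a role in growth or signalling stood among the largest interactions. DGKG, a diacylglycerol kinase, was at 38.7, 36.9 and 30.2 FPM with DMSO, 83.9, 86.5 and 89 with ATRA, 93.2 with Cfz and 116 with ATRA+Cfz, against 229 for the product and 144 for the sum (-0.97 ± 0.15 SE). IGFBP3, which binds insulin-like growth factors, was at 44.4, 39.1 and 35.9 FPM with DMSO, 175, 172 and 176 with ATRA, 67.8 with Cfz and 159 with both (-0.90 ± 0.13 SE). B4GALNT1, which makes complex gangliosides, was at 44.9, 44.4 and 43 FPM with DMSO, 84.6, 83.4 and 79.1 with ATRA, 160 with Cfz and 171 with both (-0.80 ± 0.08 SE, limma, Benjamini-Hochberg adjusted p = 0.0056). These 3 rose with each drug, and their ATRA+Cfz levels lay below the product and the sum.

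GAB2, a docking protein of growth factor receptors, was the reverse: 19.5, 18.4 and 19.8 FPM with DMSO, 8.13, 6.33 and 7.64 with ATRA, 25.8 with Cfz and 19.5 with ATRA+Cfz (0.94 ± 0.19 SE). The ATRA fall of GAB2 was thus smaller after carfilzomib. HES6, a basic helix-loop-helix factor of the HES family, had the largest fall beyond the product among called protein-coding genes, at 27.7, 25.6 and 26 FPM with DMSO, 7.75, 7.03 and 6.3 with ATRA, 12 with Cfz and 1.13 with ATRA+Cfz (-1.10 ± 0.20 SE), but its lanes differed beyond sampling noise and its value is uncertain. A call with differing lanes was made for 15 of the 346 genes. CENPX (-0.92), a centromere and DNA repair protein, and POP7 (-0.81), a subunit of RNase P and MRP, were lower as well, and the largest higher calls included TTN (0.94), CLHC1 (0.84), SRD5A1 (0.83), ZNF117 (0.81) and CLGN (0.79). None of these 5 was called with GC correction, where their interactions were 0.82, 0.70, 0.80, 0.57 and 0.60 in the same order.

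**Figure D4:**
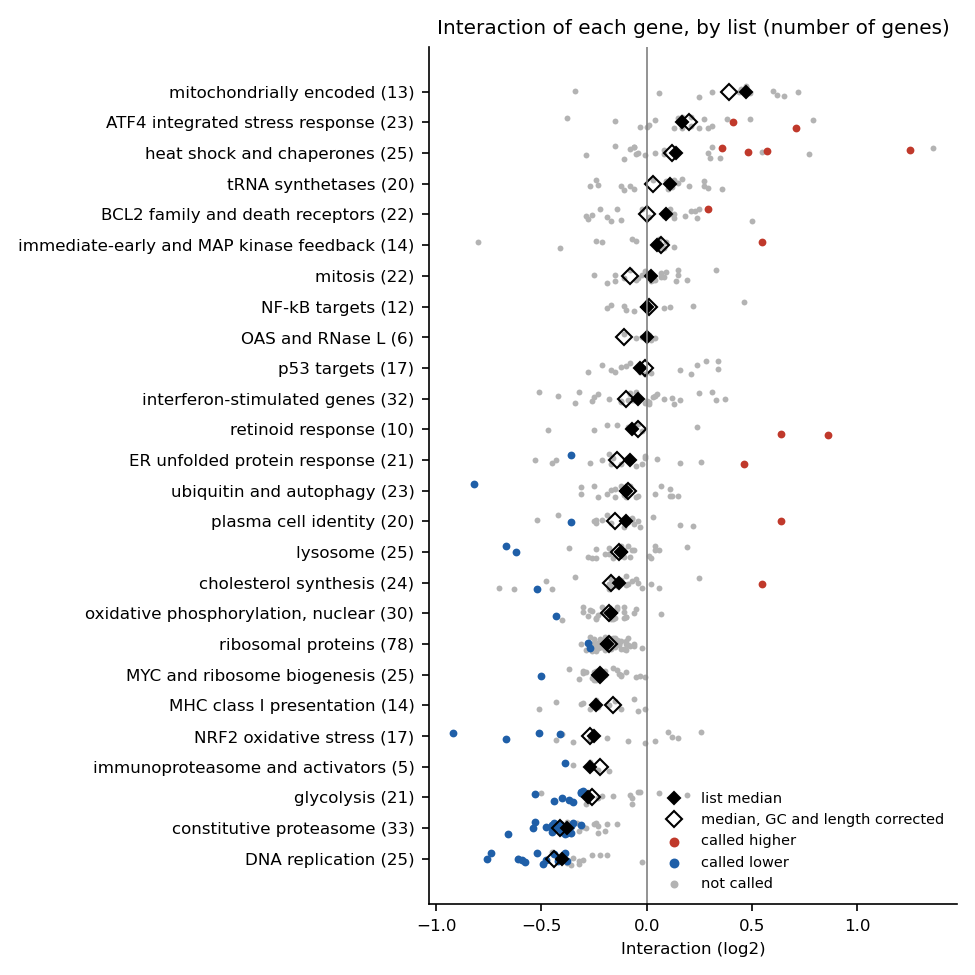
Interaction (x axis, log2) of each gene of 26 lists; small points are genes (red, called higher; blue, called lower; grey, not called), filled diamonds list medians and open diamonds medians after GC and length correction. The DNA replication (-0.40) and proteasome (-0.38) lists lie lowest, the ATF4 (0.17) and heat shock (0.14) lists lie among the highest, and the open diamonds lie close to the filled ones.

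Several large lists were shifted as a whole with few calls. Of all 10557 genes 1.43% were called higher and 1.85% lower, and 1123 were higher and 1340 lower at an unadjusted p under 0.05. All 78 ribosomal protein genes were negative (median -0.19), 58 of them lower at an unadjusted p under 0.05 and 2 called lower. The 25 genes of the MYC and ribosome biogenesis list were all negative (median -0.22, 1 called lower, NOP2), and 29 of 30 nuclear genes of oxidative phosphorylation were negative (median -0.17, 1 called lower, ATP5MC1 at -0.43). Of the 13 mitochondrially encoded genes 12 were positive, with a median of 0.47 that was 0.29 without DMSO 3, and 0 were called by limma, with 4 higher and 1 lower at an unadjusted p under 0.05. The share of mitochondrial reads, given above, moved with them, and its part in the other results was not tested.

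GC content moved with the interaction across genes. The rank correlation of the interaction with the GC content of the transcript was -0.42 (Spearman, 10529 genes, all from the same 8 libraries). The median interaction ran from 0.15 in the 10% of genes lowest in GC to -0.15 in the 10% highest. Genes called higher had a median GC content of 41.8%, genes called lower 54.8% and all genes 48.4%. In single libraries, the deviation from the gene's mean correlated with GC content at -0.23 in ATRA+Cfz and at -0.06 to 0.14 in the other 7.

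**Figure D5:**
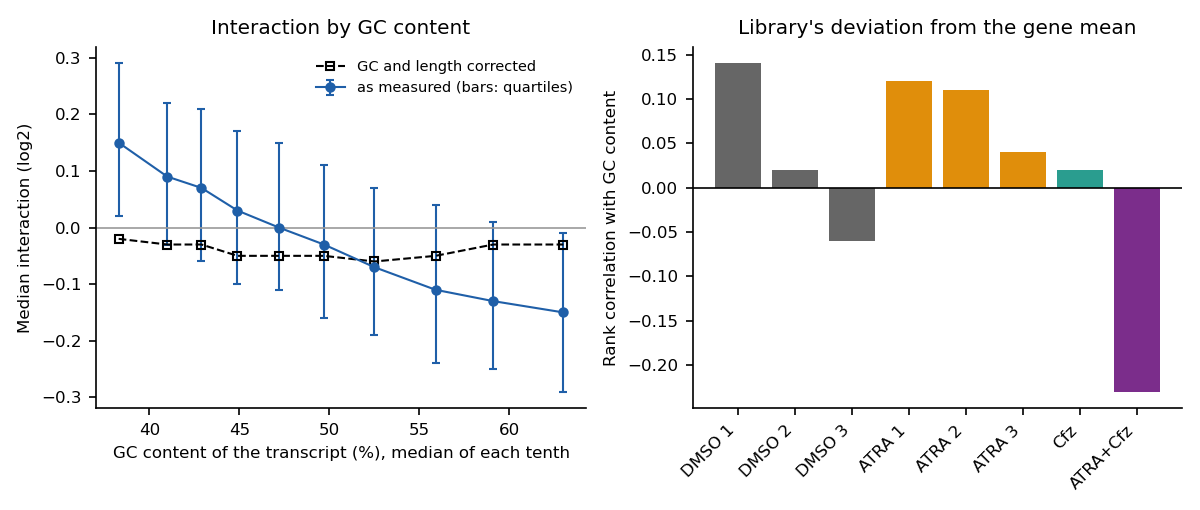
Left, median interaction (y axis, log2; bars are quartiles) of 10 equal bins of genes by transcript GC content (x axis, %), as measured and after GC and length correction. Right, rank correlation of each library's deviation from the gene mean with GC content; the ATRA+Cfz library (-0.23) stands below the other 7, which lie between -0.06 and 0.14.

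After correction of each library for GC content and length, 53 genes were called higher and 206 lower (0.503% and 1.96% of 10529 genes), 171 of them shared with the 346, and 345 of the 345 called genes with a GC value kept their sign. The corrected list medians were -0.41 for the proteasome (25 called lower), -0.44 for DNA replication (14 called lower), -0.27 for NRF2 targets (5 called lower), -0.26 for glycolysis (6 called lower), 0.12 for heat shock (3 called higher) and 0.20 for the ATF4 list (2 called higher). These lists were therefore about as far from 0 with the correction as without it, while the higher calls over all genes went from 151 to 53.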

How the data were processed

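Each column deposited by the authors holds FPM, which is a CPM value: the fragments of a lane scaled to 1000000. The submitters' processing notes name fastp 0.20.0 and kallisto 0.46.2, besides DESeq2. No source used here states the annotation, build or strand setting, so overlapping genes may share reads. The 32 samples are 4 lanes of 8 libraries, and lanes were averaged. Whole reads were recovered for 100% of values (within 0.01 read), and edgeR called 140 genes higher and 163 lower on them.

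All 8 libraries entered 1 fit of limma 3.58.1 (R 4.3.3, trended prior, 4 residual and 7.2 prior degrees of freedom) on log2(FPM + 0.5), which understates folds of low genes, for genes of at least 0.5 FPM. Scripts were tested on simulated data. GC content and length came from GENCODE release 29. Alternatives used edgeR 4.0.16 and DESeq2 1.42.0.

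Members and lists were chosen with earlier results of these data known. Named genes were the 15 largest called interactions in each direction, up to 4 called genes per list, a fixed set tied to the drugs, and up to 6 with opposite ATRA effects. Some of these genes are not reported here.

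Of lists not described in full above, ubiquitin and autophagy (23 genes) had 1 call lower, cholesterol synthesis (24) and plasma cell identity (20) 1 higher and 1 lower each, immediate-early genes (14) 1 higher and tRNA synthetases (20) 0. Of all genes 1.43% were called higher and 1.85% lower. Of myeloid and stromal markers, 1 and 3 reached 5 FPM, with 0 called.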

Additional observations from a re-analysis of the deposited data

Results flagged for a closer look

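Of the 51 genes with called ATRA effects of opposite direction without and after the carfilzomib pulse, 41 had a called interaction, against 3.28% of all genes. The interaction is the difference between these 2 effects, so this share follows largely from the selection and is a description only. The called genes with the largest interactions are given here. The processed pseudogene AC010970.1, also among the 51, was not called (-2.15 ± 0.51 SE). AC006064.6 had an interaction of 2.89: it stood at 15.5, 14.5 and 18.7 FPM with DMSO, 7.59, 12.7 and 6.3 with ATRA, 3.74 with Cfz and 16.4 with ATRA+Cfz. Its lanes differed beyond sampling noise, so the value is uncertain. RN7SK, a small nuclear RNA that holds back transcription elongation, had an interaction of -1.72, at 7.33, 10.4 and 5.75 FPM with DMSO, 15.2, 13.7 and 11.1 with ATRA, 7.08 with Cfz and 3.4 with ATRA+Cfz. The lanes of RN7SK differed too. The gene IDs FP671120.3, FP236383.3 and FP236383.2 carried the same values in every library and count as 1 measurement. Their interaction was -2.07, at 1345, 1760 and 854 FPM with DMSO, 2205, 2803 and 1529 with ATRA, 656 with Cfz and 261 with ATRA+Cfz. Replicates of FP671120.3 differed widely, and its call was at the threshold (limma, Benjamini-Hochberg adjusted p = 0.05 after rounding).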

How the results depend on the processing

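Limits: carfilzomib with and without ATRA rest on 1 library each, and precision on 14136937 to 17155331 reads per library. Of 346 called genes, 342 kept their sign under all alternatives other than GC correction. For the 67 named called genes, 1383 values were computed, of which 821 kept call and direction, 560 kept direction only and 2 reversed. For 17 named genes not called, 308 of 352 values were unchanged, 24 became called and 20 reversed. Of 546 values of list medians, 65 moved by more than the SD over the 9 pairs of single libraries. The cause was not tested for any change.

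Genes called higher numbered 243 when only genes of at least 5 FPM were fitted, 83 with a replicate block, 53 with GC correction and 67 with DESeq2, and 0 to 904 when 1 library was left out. Genes called lower numbered 305, 142, 206 and 229 in the same order, 412 with median-ratio scaling, and 1 to 1006 with 1 library left out. Lanes 1 to 4 alone gave 7, 1, 0 and 2 higher and 9, 2, 0 and 3 lower. DMSO and ATRA libraries of the same number correlated weakly, at 0.06, 0.014 and 0.048, and those of different numbers at -0.067 to 0.007. Whether the numbers mark pairs was not tested.

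With 1 library left out, list calls ranged from 0 to 32 (proteasome), 1 to 20 (DNA replication), 0 to 8 (NRF2) and 0 to 9 (heat shock). For glycolysis the range was 0 to 12, with 5 under the replicate block and 5 with edgeR. Lanes 1 to 4 alone gave 1, 0, 0 and 0 calls for proteasome, NRF2 and glycolysis, 1, 1, 0 and 1 for DNA replication and 2, 0, 0 and 0 for heat shock. Slopes from lanes 1 to 4 alone were 0.88, 0.88, 0.88 and 0.89 for ATRA and 0.58, 0.60, 0.62 and 0.64 for Cfz.

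Reversed values were, in lane 3 alone, SMIM11A -0.32, OAS2 0.22, OAS3 -0.23, ATF3 -0.01, ABCB1 0.43, HAPLN3 -0.31 and MFGE8 -0.21. In lane 4 alone they were DUSP23 0.11 and ATF3 -0.26, and in lane 1 alone OAS1 -0.10. With median-ratio scaling OAS1 was -0.04, OAS3 -0.01 and ATF3 -0.01, and OAS1 was -0.01 with TMM scaling. OAS1 was 0.00 with a pseudocount of 2 FPM and with DESeq2, and with 1 library left out -0.15 (DMSO 3) to 0.09 (DMSO 2), with -0.01 without ATRA 1. Without DMSO 3, OAS3 was -0.06 and MFGE8 0.00. With 1 library left out ATF3 ranged from -0.04 (DMSO 2) to 0.09 (ATRA 2), and SQSTM1 0.02 with GC correction.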
